A study of Mus musculus with 9 samples.

Results

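The 10 genes described here encode the proteins that make, store, break down and sense acetylcholine: Ache, Bche, Chat, Slc18a3, Chrna3, Chrna4, Chrna5, Chrnb2, Chrnb4 and Chrm4. They are 10 of the 24318 genes in the deposited tables. The group was chosen by the values of Ache, whose transcripts are among those that rose most after depletion of EXOSC3 while they stayed near the control after depletion of DDX1, and it was filled with genes of the same transmitter system by their function. The values of Ache in both knockdowns are therefore given as a description, without a test.

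The cells were N2A (Neuro2A), a mouse neuroblastoma line labelled WT, and the same line labelled as knockdown of EXOSC3 or DDX1. They received scramble siRNA (siScramble, called scramble here), EXOSC3 siRNA or DDX1 siRNA by Lipofectamine transfection, with no further treatment. EXOSC3 is a cap subunit of the RNA exosome, which processes and degrades RNA, and DDX1 is a putative RNA helicase. Total RNA of 3 biological replicates per condition, 9 libraries in all, was depleted of ribosomal RNA and sequenced without strand information. All samples come from a single cell line, so the replicates are separate cultures of that line, and in bulk RNA fewer cells of a type cannot be told apart from less RNA per cell.

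Acetylcholine is made from choline and acetyl-CoA by choline acetyltransferase (Chat) and is loaded into synaptic vesicles by the transporter encoded by Slc18a3, a gene that lies inside the Chat locus. Acetylcholinesterase (Ache) hydrolyses it in the synaptic cleft, and butyrylcholinesterase (Bche) is a related enzyme of plasma, liver and glia. Nicotinic receptors are pentameric ion channels built from alpha and beta subunits, and the combination of Chrna3 with Chrnb4, with or without Chrna5, is the known ganglionic type of sympathetic neurons, whereas Chrna4 with Chrnb2 is the common brain type. Chrm4 encodes a muscarinic receptor coupled to inhibitory G proteins.

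The stretches upstream of the starts of 3 of these genes are shown because Ache has the largest log2 fold change of the tested members on the log2(FPKM + 1) scale and because Chrna3 and Chrna5, which are neighbours, lay on opposite sides of scramble in the knockdowns. Letters are from the RefSeq promoter table of GRCm38.p6, written 5′ to 3′ on the strand of the gene, and each was placed on mm9 by an exact match that occurs once on its chromosome. Capitals mark the letters GCGGGGGCG, which the transcription factor Egr1 is known to bind, and GGGCGG, the GC box of Sp1, on either strand, and where matches overlap their capitals run together.
Ache (mm9 chr5:137729286-137729481, plus strand): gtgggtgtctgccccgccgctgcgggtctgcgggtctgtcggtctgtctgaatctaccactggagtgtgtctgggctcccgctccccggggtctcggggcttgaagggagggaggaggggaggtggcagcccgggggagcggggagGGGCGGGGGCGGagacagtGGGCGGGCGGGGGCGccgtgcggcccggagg
Chrna3 (mm9 chr9:54874370-54874619, minus strand): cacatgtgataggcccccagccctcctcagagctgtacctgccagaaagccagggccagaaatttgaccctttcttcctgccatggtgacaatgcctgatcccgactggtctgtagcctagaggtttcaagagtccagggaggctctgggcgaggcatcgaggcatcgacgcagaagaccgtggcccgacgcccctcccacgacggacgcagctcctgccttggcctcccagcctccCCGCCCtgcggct
Chrna5 (mm9 chr9:54828437-54828686, plus strand): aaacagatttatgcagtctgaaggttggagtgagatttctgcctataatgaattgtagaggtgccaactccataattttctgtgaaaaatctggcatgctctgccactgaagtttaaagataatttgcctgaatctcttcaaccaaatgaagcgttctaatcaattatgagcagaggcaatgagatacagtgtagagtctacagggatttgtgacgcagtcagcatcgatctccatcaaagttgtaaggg

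The 250 bases before the RefSeq start of Ache hold 2 matches to GCGGGGGCG, a motif found in 2.57% of 32851 mouse promoter windows of that length, and 4 matches to GGGCGG, found in 32.7% of them. The first bases of this window belong to an annotated exon of longer Ache transcripts and are not printed. None of the other 9 genes has GCGGGGGCG in its window. GGGCGG occurs in the windows of Bche, Slc18a3, Chrna3, Chrna4 and Chrm4 and not in those of Chat, Chrna5, Chrnb2 and Chrnb4. The window of Ache is 73.6% G and C and that of Chrna5 40.0%, against a median of 52.4% over all windows. The left part TTCAGCACC of the element bound by the repressor Rest, present in 0.301% of windows, is in none of the 10, and the right part GGACAG of that element, present in 18.7%, is in that of Chrnb4 alone. These are matches of letters and were not tested for binding.

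Expression was deposited as FPKM (fragments scaled by transcript length and library size), a value per length that allows the genes to be ordered within a library. The 3 scramble libraries appear in both tables, scaled separately, so each knockdown is set against the scramble values of its own table and both comparisons share their controls. Log2(FPKM + 1) was tested with limma in genes with a mean of at least 1 FPKM over the 6 libraries of a table, with Benjamini-Hochberg adjustment over all of them and a threshold of 0.05. Ache, Chrna3, Chrnb2 and Chrm4 reached that level in both tables. The other 6 genes did not and are described by their values.

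The depletions and the identity of the cells were checked first. Exosc3 stood at 15.5% ± 1.90 (mean ± SD, n = 3) of scramble in siEXOSC3 cells, and Ddx1 at 24.4% ± 2.99 (mean ± SD, n = 3) in siDDX1 cells. The absolute depth of the libraries is unknown, and their depth relative to scramble replicate 1 ranged from 0.827 to 1.20. Of 14 neuroblastoma and neuron markers, including Phox2a and Hand2, 11 were tested in each table, and their summed level over the 14 was 724 to 766 FPKM in siEXOSC3 libraries against 434 to 478 FPKM in scramble, and 468 to 529 FPKM in siDDX1 libraries against 430 to 472 FPKM in scramble. In siEXOSC3 cells 8 of the 11 tested markers rose and none fell, with a median log2 fold change of 0.69, where 16.7% of all tested genes rose and 15.7% fell. In siDDX1 cells Gap43 and Elavl4 rose, where 5.61% of all tested genes did. Glial markers summed to 2.65 to 3.42 FPKM and fibroblast markers to 0.839 to 1.31 FPKM over all libraries, with Aqp4, Col1a2, Col3a1 and Lum listed at 0. Skeletal muscle markers, a tissue that also uses Ache, summed to 48.8 to 64.2 FPKM in siEXOSC3 and 43.2 to 54.5 FPKM in scramble libraries, with Myod1 and Ckm at 0. Most of this sum was Myh3, an embryonic myosin heavy chain, at 51.2 ± 5.94 FPKM (mean ± SD, n = 3) in siEXOSC3 and 44.5 ± 5.30 FPKM (mean ± SD, n = 3) in scramble cells. Blood cell markers summed to at most 1.83 FPKM, with Itgam and Hbb-b1 listed at 0. The part of these markers in the results below was not tested.

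In scramble cells Chrna3 had the highest level of the 10 genes, at 32.2 ± 2.40 FPKM (mean ± SD, n = 3). Chrnb2 followed at 8.49 ± 0.666 FPKM (mean ± SD, n = 3), Chrm4 at 5.23 ± 0.934 FPKM (mean ± SD, n = 3) and Ache at 3.91 ± 0.319 FPKM (mean ± SD, n = 3). No neighbouring pair among these 4 overlapped over the scramble libraries. Chrna5, at 0.300 ± 0.110 FPKM (mean ± SD, n = 3), and Chrnb4, at 0.215 ± 0.0287 FPKM (mean ± SD, n = 3), were far lower and overlapped each other. Chat, at 0.0414 ± 0.0462 FPKM (mean ± SD, n = 3), and Chrna4, at 0.0336 ± 0.0139 FPKM (mean ± SD, n = 3), also overlapped, and Slc18a3 and Bche were listed at 0. The ganglionic subunit Chrna3 was thus accompanied by little Chrnb4 and Chrna5 transcript, and the genes for making and storing acetylcholine were near the limit of detection.

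**Figure D1:**
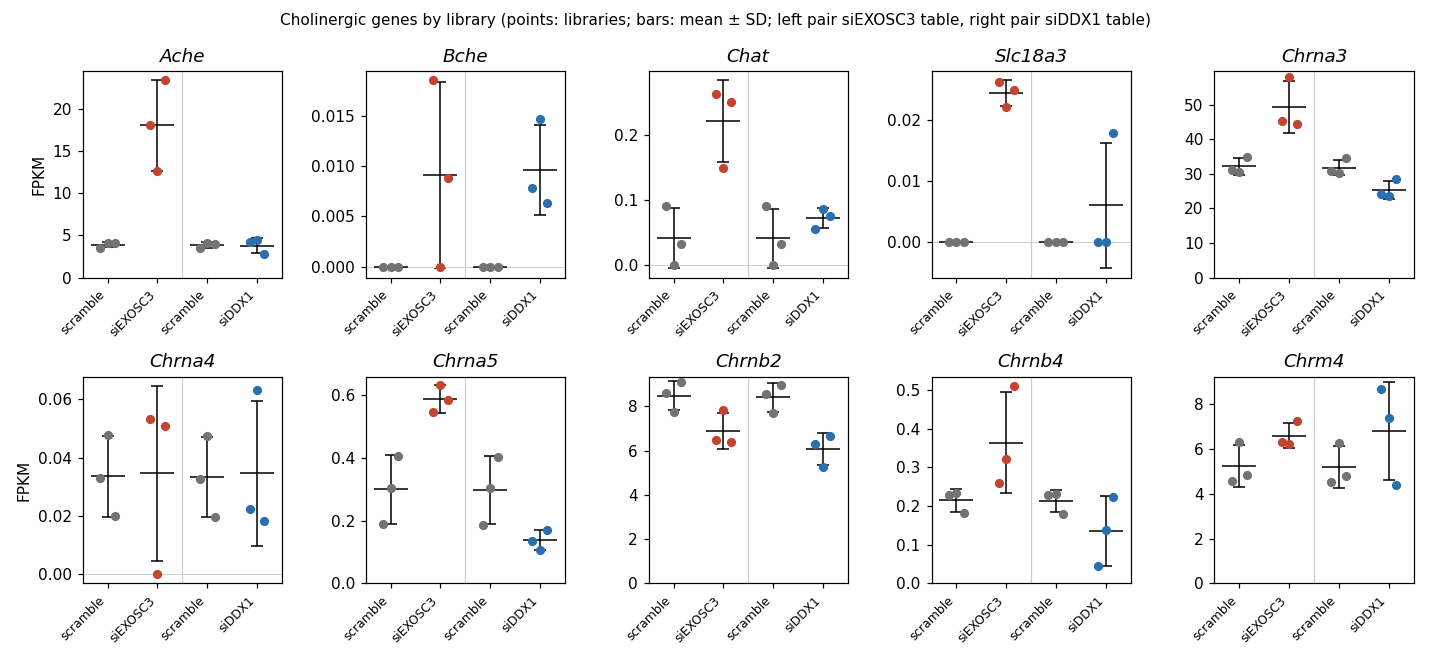
FPKM of the 10 cholinergic genes in each library (points), with mean and SD (bars). In each panel the left pair is the siEXOSC3 table and the right pair the siDDX1 table, grey points are scramble libraries, and each y axis has its own scale. All 3 siEXOSC3 values of Ache, between 12.7 and 23.5 FPKM, lie above the scramble values, whereas the siDDX1 values lie around them.

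Ache lies on chromosome 5 of mm9 from 137728747 to 137735694 on the plus strand. Its scramble values were 3.55, 4.13 and 4.07 FPKM for replicates 1, 2 and 3, and its siEXOSC3 values were 18.1, 12.7 and 23.5 FPKM. Every siEXOSC3 library was above every scramble library, and the siEXOSC3 libraries also differed from each other by more than the scramble libraries did. The mean of 18.1 ± 5.41 FPKM (mean ± SD, n = 3) was 4.62 times that of scramble, a log2 fold change of 1.92 (standard error, SE, 0.184) on the log2(FPKM + 1) scale. In the siDDX1 table Ache was at 4.25, 4.44 and 2.74 FPKM, with scramble at 3.52, 4.09 and 4.02 FPKM. The siDDX1 values extended to both sides of the scramble values, with a mean of 3.81 ± 0.930 FPKM (mean ± SD, n = 3), 98.2% of scramble, and a log2 fold change of -0.04 (SE 0.147). The direction of this small difference depended on siDDX1 replicate 3, without which it was 0.13.

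By log2 fold change Ache ranked 3 among the 11242 genes tested in siEXOSC3 cells, behind the small nucleolar RNA genes Snora78 and Snora23, and the next gene, Sncg, stood at 1.92 as well. In siDDX1 cells its rank was 6450 of 11104. In scramble cells Ache was the lowest of the 4 genes with a mean of at least 1 FPKM, and in siEXOSC3 cells it was above Chrnb2 and Chrm4 in every library. These ranks describe the values by which the gene was chosen.

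Prima1, the membrane anchor that holds acetylcholinesterase at the surface of neurons, rose in siEXOSC3 cells from 2.88, 2.83 and 2.27 FPKM to 4.51, 4.85 and 4.27 FPKM. The groups did not overlap, and the log2 fold change was 0.60 (SE 0.102, adjusted p = 0.00473 by limma). In siDDX1 cells Prima1 was at 2.12 ± 0.356 FPKM (mean ± SD, n = 3) against 2.64 ± 0.342 FPKM (mean ± SD, n = 3) in scramble, with a adjusted p of 0.251 by limma. Colq, which encodes the collagen tail that anchors the enzyme at the neuromuscular junction, was under 1 FPKM in all libraries. Bche, the other cholinesterase, was listed at 0 in all 3 scramble libraries, at 0.0185, 0 and 0.00885 FPKM in siEXOSC3 and at 0.00782, 0.0147 and 0.00634 FPKM in siDDX1 libraries. Multiplied by the relative depth of the libraries these values are whole multiples of a common step within 0.1 of a step, namely 2, 0 and 1 steps in siEXOSC3 and 1, 2 and 1 in siDDX1 libraries. If a step is a single fragment, Bche rests on 3 and 4 fragments in all, and no fold change is given.

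Chrna3 lies on chromosome 9 from 54859150 to 54874366 on the minus strand. Its scramble values were 31.1, 30.5 and 34.9 FPKM, and its siEXOSC3 values 45.4, 58.1 and 44.6 FPKM. All siEXOSC3 libraries were above all scramble libraries, by a log2 fold change of 0.59 (SE 0.108, adjusted p = 0.00613 by limma). In siDDX1 cells it was at 24.1, 23.7 and 28.5 FPKM, below the 30.8, 30.2 and 34.5 FPKM of scramble. The groups again did not overlap, but on the other side. The log2 fold change of -0.32 (SE 0.0871, adjusted p = 0.0547 by limma) did not pass the threshold. Without siDDX1 replicate 3 it was -0.40 and passed (adjusted p = 0.00340 by limma). Of the 11054 genes tested in both tables, 167 (1.51%) were likewise above scramble in all siEXOSC3 and below it in all siDDX1 libraries, and of the 4 tested members Chrna3 was the one that did so. The difference between both knockdowns was not tested, since their tables were scaled separately.

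Chrna5, an accessory subunit, lies on the other strand at a distance of 3563 bases from Chrna3, and Chrnb4 lies 1596 bases from Chrna3 on the same strand. Chrna5 had 0.188, 0.306 and 0.408 FPKM in scramble and 0.546, 0.633 and 0.584 FPKM in siEXOSC3 libraries. In siDDX1 libraries it had 0.134, 0.108 and 0.170 FPKM, against 0.187, 0.303 and 0.403 FPKM in scramble. At its low level Chrna5 thus showed the same order as Chrna3, with no overlap on either side. The ends of both genes face each other, and Chrna3 is far higher. Without strand information, reads of Chrna3 transcripts that run past its end cannot be told apart from those of Chrna5. Their part in the values of Chrna5 was not tested.

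Chrnb4 had 0.229, 0.233 and 0.182 FPKM in scramble and 0.260, 0.322 and 0.511 FPKM in siEXOSC3 libraries, which did not overlap. Its siDDX1 values of 0.0438, 0.137 and 0.225 FPKM overlapped the 0.227, 0.231 and 0.179 FPKM of scramble. The mean of each of the 3 clustered genes was above scramble in siEXOSC3 and below it in siDDX1 cells. Low genes as a class were also higher in siEXOSC3 cells. Among 2523 genes with a mean between 0.1 and 1 FPKM the median was 0.322 to 0.371 FPKM in siEXOSC3 and 0.273 to 0.286 FPKM in scramble libraries, and 24.1% of these genes lay above scramble without overlap, as Chrna5 and Chrnb4 did. After DDX1 depletion 9.91% of genes at this level lay below scramble without overlap, as Chrna5 did.

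**Figure D2:**
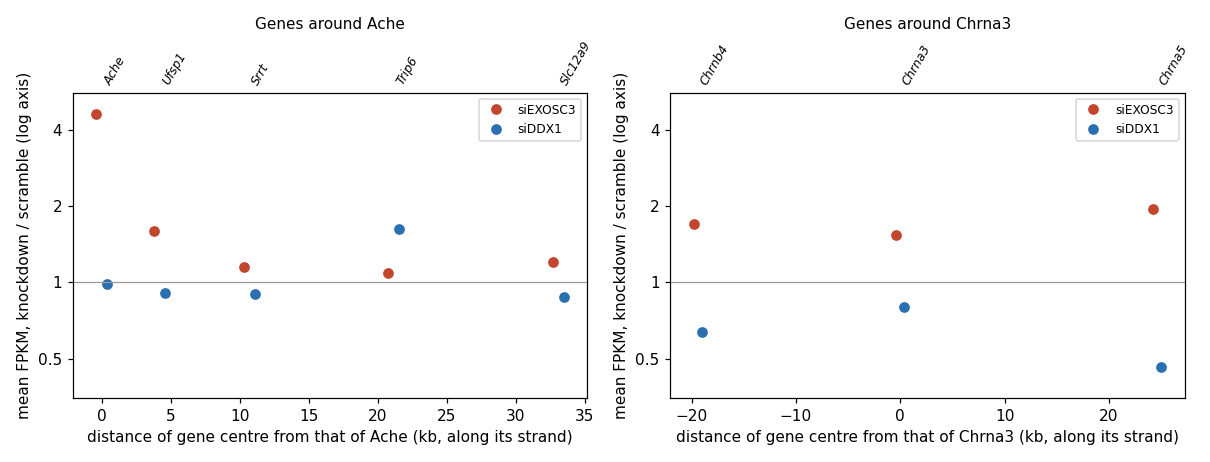
Ratio of the mean FPKM of each knockdown to that of scramble (log axis) for the genes within 50 kb of Ache (left) and for the nicotinic cluster around Chrna3 (right), by distance between gene centres along the strand of Ache or Chrna3. Ache, which was chosen for its rise, stands at 4.62 in siEXOSC3 cells, above its neighbours. The 3 nicotinic genes lie above 1 in siEXOSC3 and below 1 in siDDX1 cells.

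In siEXOSC3 cells the tested neighbours of Ache changed less than Ache. Ache was chosen for the size of its rise, so this difference largely follows from the choice and is a description. In the GENCODE annotation of mm9, 4 genes lie within 50 kb of Ache, and 3 of them, Ufsp1, Srrt and Slc12a9, were tested, with log2 fold changes between 0.18 and 0.60 in siEXOSC3 and between -0.16 and -0.13 in siDDX1 cells. Ufsp1, which encodes a protein of the UFM1 system, starts 202 bases beyond the end of Ache on the same strand. It rose in siEXOSC3 cells from 5.32 ± 1.09 FPKM (mean ± SD, n = 3) to 8.51 ± 0.438 FPKM (mean ± SD, n = 3), which is a log2 fold change of 0.60 (SE 0.129, adjusted p = 0.0104 by limma). Srrt, whose product takes part in nuclear RNA processing, was at 39.6 ± 5.68 FPKM (mean ± SD, n = 3) against 34.6 ± 2.17 FPKM (mean ± SD, n = 3) in scramble and did not pass the test (adjusted p = 0.197 by limma), but passed without siEXOSC3 replicate 3 (0.0409).

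Chrnb2, the beta subunit of the brain type receptor, lies on chromosome 3 from 89557370 to 89568554 on the minus strand, with a single base between it and Adar on the other strand. Its scramble values were 8.62, 7.77 and 9.09 FPKM, and its siEXOSC3 values 6.47, 7.85 and 6.39 FPKM. The groups overlapped through siEXOSC3 replicate 2, and the log2 fold change of -0.27 (SE 0.0983, adjusted p = 0.0672 by limma) did not pass the threshold. Without that replicate it was -0.35 (adjusted p = 0.0139 by limma). In siDDX1 cells Chrnb2 fell to 6.31, 5.28 and 6.65 FPKM, from 8.55, 7.71 and 8.98 FPKM in scramble, with no overlap and a log2 fold change of -0.41 (SE 0.0990, adjusted p = 0.0364 by limma). This call was lost in 5 of the 6 fits that leave out a library, with a highest adjusted p of 0.141, and it held without siDDX1 replicate 3. Adar had a higher level than Chrnb2, with a mean of 21.0 FPKM in scramble and 17.1 FPKM after EXOSC3 depletion. It was called lower there (log2 fold change -0.29, SE 0.0755, adjusted p = 0.0214 by limma). After DDX1 depletion its mean was 19.7 FPKM against 20.8 FPKM, and it did not pass the test (adjusted p = 0.504 by limma). Reads of both genes that reach past the base between them cannot be told apart without strand information. The part of Adar reads in the values of Chrnb2 was not tested.

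The ratio of Chrna3 to Chrnb2 within a library does not depend on how the libraries were scaled. It was 3.61, 3.92 and 3.84 in scramble, 7.02, 7.40 and 6.97 in siEXOSC3 and 3.83, 4.49 and 4.28 in siDDX1 libraries. The siEXOSC3 ratios were above all scramble ratios, and the siDDX1 ratios overlapped them. Over 16 nicotinic subunit genes in the tables, Chrna3 made up 62.6% ± 0.503 (mean ± SD, n = 3) of the summed FPKM in scramble, 71.7% ± 1.98 (mean ± SD, n = 3) in siEXOSC3 and 62.5% ± 1.04 (mean ± SD, n = 3) in siDDX1 cells. These ratios were chosen after the values of both genes had been seen and were not tested. The part of Adar reads in the ratio of Chrna3 to Chrnb2 was not tested either. Chrna4, the usual partner of Chrnb2, had 0.0199 to 0.0478 FPKM in scramble, 0 to 0.0531 FPKM in siEXOSC3 and 0.0182 to 0.0631 FPKM in siDDX1 libraries, where scramble had 0.0197 to 0.0474 FPKM, so that its groups overlapped.

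Chrm4, the inhibitory muscarinic receptor, lies on chromosome 2 from 91762346 to 91769986 on the plus strand. The annotated gene overlaps Mdk on the other strand, and without strand information the reads of both cannot be told apart. Mdk was low, at 0.632 ± 0.127 FPKM (mean ± SD, n = 3) in scramble and 1.12 ± 0.369 FPKM (mean ± SD, n = 3) in siEXOSC3 cells. Chrm4 had 4.57, 6.30 and 4.83 FPKM in scramble and 6.29, 6.22 and 7.22 FPKM in siEXOSC3 libraries, with a log2 fold change of 0.29 (SE 0.118, adjusted p = 0.0901 by limma). The values overlapped through scramble replicate 2, without which the log2 fold change was 0.41 (adjusted p = 0.0350 by limma). In siDDX1 libraries it had 8.64, 7.36 and 4.39 FPKM against 4.53, 6.25 and 4.78 FPKM, and the third value was below all scramble values while the others were above them. The log2 fold change was 0.30 (SE 0.207, adjusted p = 0.356 by limma), and without siDDX1 replicate 3 it was 0.55 (adjusted p = 0.00937 by limma).

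Chat, which makes acetylcholine, had 0.0913, 0 and 0.0330 FPKM in scramble, 0.265, 0.149 and 0.252 FPKM in siEXOSC3 and 0.0557, 0.0872 and 0.0752 FPKM in siDDX1 libraries, whose table lists scramble at 0.0905, 0 and 0.0326 FPKM. The siEXOSC3 values were above the scramble values and the siDDX1 values overlapped them. Of genes with a mean between 0.1 and 1 FPKM, as Chat has in the siEXOSC3 table, 24.1% lay above scramble without overlap. On the scale of the common step, taken as 1 of the 2 steps in the lowest value above 0, scramble libraries summed to 7, siEXOSC3 libraries to 32 and siDDX1 libraries to 13 steps. Slc18a3, which encodes the vesicular acetylcholine transporter and whose start lies within the Chat gene on the same strand, was listed at 0 in scramble. It had 0.0263, 0.0222 and 0.0250 FPKM in siEXOSC3 libraries and 0, 0 and 0.0179 FPKM in siDDX1 libraries, each value above 0 being a single step. The siEXOSC3 and scramble values of Slc18a3 do not overlap, but the difference amounts to a single step in each library. The plasma membrane choline transporter Slc5a7, a gene of the same phenotype, did not exceed 0.01 FPKM in any library.

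Of the 9 genes other than Ache, 3 were tested in each table. In siEXOSC3 cells 1 of them, Chrna3, rose and none fell, where 16.7% of all tested genes rose and 15.7% fell. In siDDX1 cells 1, Chrnb2, fell and none rose, where 5.03% of all tested genes fell and 5.61% rose. After EXOSC3 depletion the median log2 fold change of these 3 genes was 0.29 and after DDX1 depletion -0.32, against -0.01 and -0.00059 over the whole of the tested genes. Groups without overlap were found for Chrna3 in siEXOSC3 cells, where 49.7% of all tested genes did not overlap, and for Chrna3 and Chrnb2 in siDDX1 cells, where the share was 34.7%. With so few genes the counts do not set the group apart from other genes.

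**Figure D3:**
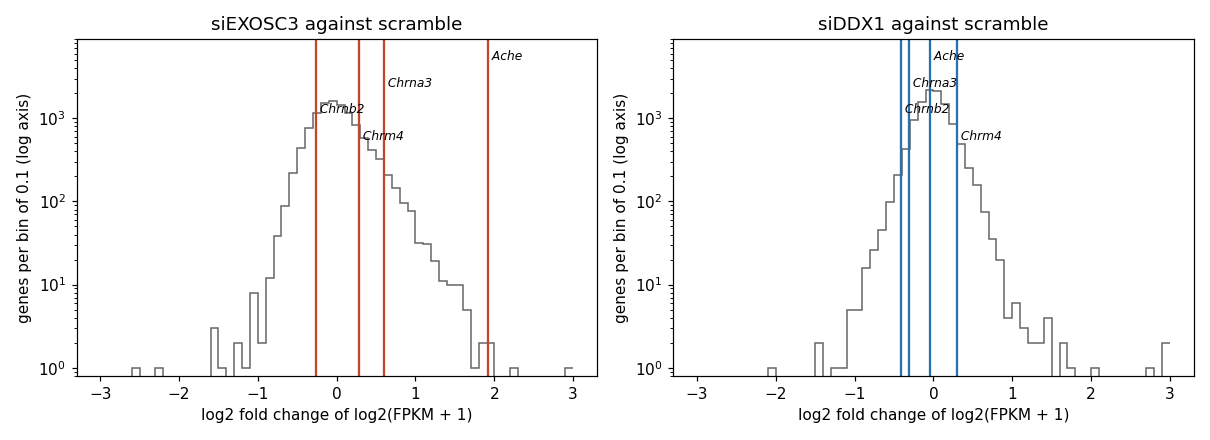
Number of tested genes per bin of 0.1 in log2 fold change (grey outline, log axis, changes beyond 3 placed in the outermost bins) in siEXOSC3 (left) and siDDX1 (right) cells, with the 4 tested members as vertical lines. Ache stands at 1.92 in the right tail of the siEXOSC3 distribution and at -0.04 near the middle of the siDDX1 distribution.

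The other genes of the pathway were counted over 5 lists with 58 genes, namely choline supply and vesicle genes, other nicotinic subunits, other muscarinic receptors, anchors and receptor assembly factors, and transcription factors of cholinergic genes. In siEXOSC3 cells 27 of them were tested, and 8 rose, 1 fell and 18 did not pass the test, where 16.7% of all tested genes rose and 15.7% fell, with a median log2 fold change of 0.08 against -0.01 over all tested genes. In siDDX1 cells 26 were tested, of which 1 rose and 25 did not pass, where 5.61% of all tested genes rose, with a median of -0.05.

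Among choline supply and vesicle genes 3 of 8 tested rose in siEXOSC3 cells, against 16.7% of all tested genes. Slc10a4, a vesicular protein of cholinergic and monoaminergic neurons, rose from 25.8, 24.4 and 29.7 FPKM to 47.8, 57.1 and 46.8 FPKM (log2 fold change 0.90, SE 0.101, adjusted p = 0.00110 by limma). Slc25a1, the mitochondrial citrate carrier, rose by 0.86 (SE 0.104, adjusted p = 0.00152 by limma) and Acly, which turns that citrate into cytosolic acetyl-CoA, by 0.45 (SE 0.0668, adjusted p = 0.00316 by limma). Both proteins also serve lipid synthesis. In siDDX1 cells none of the 8 passed the test. Slc10a4 was above scramble in all siDDX1 libraries, at 34.1 ± 6.04 FPKM (mean ± SD, n = 3) against 26.4 ± 2.65 FPKM (mean ± SD, n = 3), with a adjusted p of 0.0993 by limma.

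Of 11 other nicotinic subunits, 3 were tested in siEXOSC3 cells and 1 rose, where 16.7% of all tested genes rose. This was Chrna1, the alpha subunit of the muscle receptor, which went from 1.11 ± 0.283 FPKM (mean ± SD, n = 3) to 1.99 ± 0.287 FPKM (mean ± SD, n = 3). Its log2 fold change was 0.51 (SE 0.138, adjusted p = 0.0244 by limma), and its adjusted p by limma rose above 0.05 without siEXOSC3 replicate 1 (0.0911), scramble replicate 1 (0.0640) or scramble replicate 2 (0.0760) and with quantile normalization (0.0890). Chrna7, the subunit of homomeric neuronal receptors, was at 4.61 ± 1.28 FPKM (mean ± SD, n = 3) in siEXOSC3 and 4.25 ± 0.770 FPKM (mean ± SD, n = 3) in scramble cells (adjusted p = 0.751 by limma). In siDDX1 libraries Chrna7 had 2.12, 2.53 and 3.54 FPKM against 3.71, 3.85 and 5.07 FPKM in scramble, without overlap. It did not pass the test there (log2 fold change -0.49, SE 0.158, adjusted p = 0.0824 by limma). None of 4 other muscarinic receptors reached a mean of 1 FPKM.

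Of 18 transcription factors listed for their known roles at cholinergic genes, 13 were tested, and in siEXOSC3 cells Egr1, Isl1 and Phox2a rose and Rest fell, where 16.7% of all tested genes rose and 15.7% fell. Egr1, an immediate early zinc finger factor, had 65.7, 38.0 and 98.6 FPKM in siEXOSC3 and 20.1, 27.1 and 19.4 FPKM in scramble libraries, a log2 fold change of 1.47 (SE 0.293, adjusted p = 0.00833 by limma). In siDDX1 cells, in which Ache was at 98.2% of scramble, Egr1 had 66.4, 76.1 and 65.5 FPKM against 20.0, 26.9 and 19.2 FPKM, a log2 fold change of 1.62 (SE 0.124, adjusted p = 0.00180 by limma). The letters GCGGGGGCG shown above lie before the RefSeq start of Ache but inside the annotated gene, which begins further upstream. Whether Egr1 has a part in the values of Ache was not tested.

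Isl1, a LIM homeodomain factor of motor and sympathetic neurons, rose from 5.57, 6.06 and 5.74 FPKM to 8.81, 11.3 and 9.68 FPKM in siEXOSC3 cells (log2 fold change 0.68, SE 0.0973, adjusted p = 0.00272 by limma). Phox2a, a homeodomain factor of autonomic neurons, rose by 0.59 (SE 0.111, adjusted p = 0.00682 by limma). Rest, the repressor of neuronal genes, fell from 11.6, 12.9 and 10.8 FPKM to 7.51, 7.51 and 8.46 FPKM, with no overlap and a log2 fold change of -0.53 (SE 0.0883, adjusted p = 0.00434 by limma). Rest was named after its values had been seen. In siDDX1 cells Rest was at 9.38, 9.93 and 9.18 FPKM against 11.5, 12.8 and 10.7 FPKM in scramble, again without overlap, but did not pass the test (log2 fold change -0.27, adjusted p = 0.0707 by limma). There neither Isl1 (adjusted p = 0.313 by limma) nor Phox2a (adjusted p = 0.324 by limma) passed the test.

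**Figure D4:**
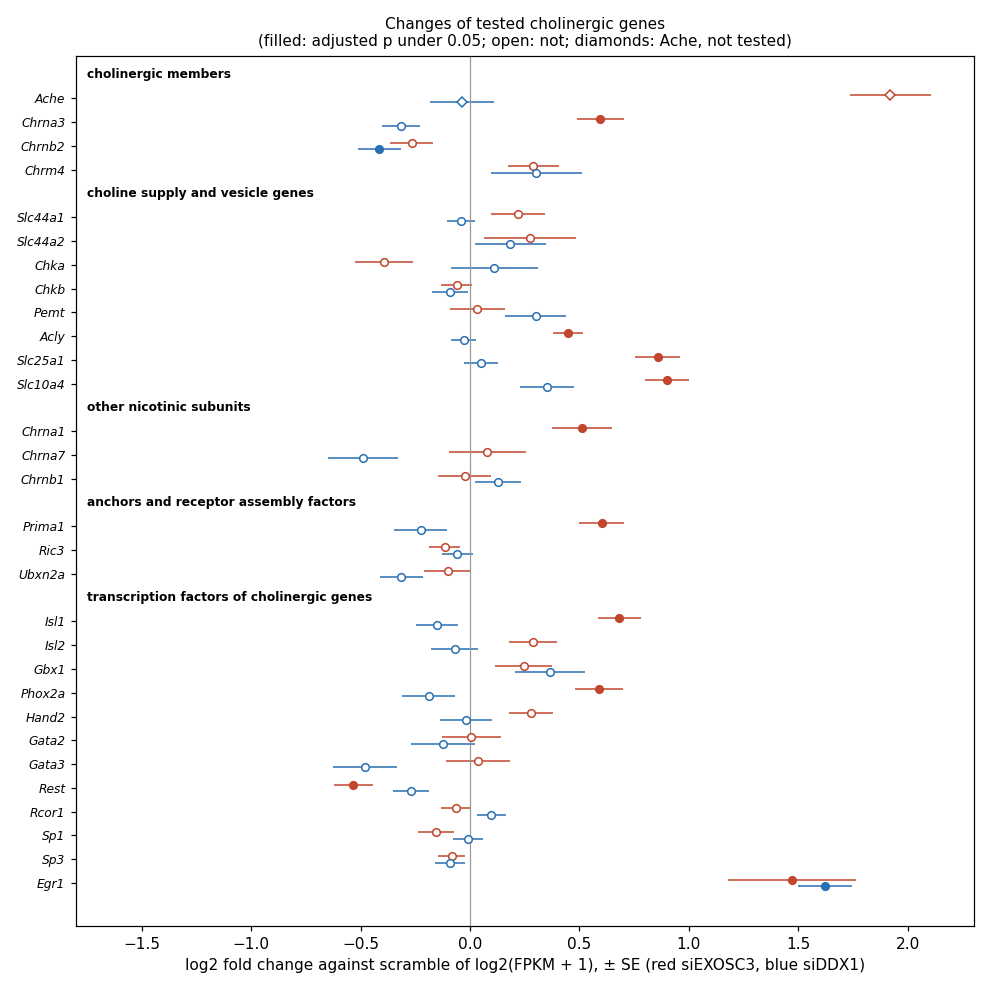
Log2 fold change against scramble of log2(FPKM + 1), with standard error (bars), for the tested members and the tested genes of 4 pathway lists, of which 1 is not shown, in siEXOSC3 (red) and siDDX1 (blue) cells. Filled circles passed an adjusted p of 0.05 by limma, open circles did not, and diamonds are Ache, which was not tested. Egr1 is the one pathway gene shown as filled in both knockdowns.

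Genes of other transmitters, together with the granins Chga and Chgb, were looked at beside the cholinergic genes. Of 15 such genes 6 were tested, and in siEXOSC3 cells 4 rose, where 16.7% of all tested genes rose, with a median log2 fold change of 0.79 over the 6 against -0.01 over all tested genes. Chgb, a granin of secretory granules, rose from 120 ± 8.32 FPKM (mean ± SD, n = 3) to 359 ± 62.1 FPKM (mean ± SD, n = 3), a log2 fold change of 1.56 (SE 0.117, adjusted p = 3.36e-04 by limma). Slc18a2, the vesicular monoamine transporter, rose by 0.97 (adjusted p = 0.00263 by limma), Dbh, which makes noradrenaline, by 0.88 (adjusted p = 0.00164 by limma), and Chga, the other granin, by 0.69 (adjusted p = 0.00190 by limma). Chga was named after its values had been seen. In siDDX1 cells Chgb rose by 0.30 (SE 0.0752, adjusted p = 0.0440 by limma), a call that was lost in 5 of the 6 fits without a library, with a highest adjusted p of 0.170, and that held without siDDX1 replicate 3. The call of Chgb was also lost with no filter (adjusted p = 0.0722 by limma), with quantile normalization (0.0973) and with no intensity trend (0.0630). Chga was below scramble in all siDDX1 libraries, at 77.3, 74.2 and 73.1 FPKM against 79.8, 91.4 and 88.3 FPKM, and did not pass the test (log2 fold change -0.20, adjusted p = 0.0850 by limma). Of the cholinesterase-like adhesion proteins Nlgn1, Nlgn2 and Nlgn3, 1, Nlgn2, was tested and passed in neither knockdown.

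The genes most like Ache in pattern were taken by the smallest Euclidean distance over 12 values, log2(FPKM + 1) minus the scramble mean of the table, among the 11054 genes tested in both. They were Sncg (distance 0.547), Dmkn (0.688), Ndrg4 (0.851), Nsg2 (0.954) and Tppp3 (0.961), against a median distance of 3.48 over all other genes. Sncg encodes gamma-synuclein and Nsg2 a neuronal endosomal protein. Sncg had 99.8 ± 12.1 FPKM (mean ± SD, n = 3) in siEXOSC3 cells and 26.8 ± 2.88 FPKM (mean ± SD, n = 3) in siDDX1 cells, with scramble at 25.7 ± 2.68 FPKM (mean ± SD, n = 3) and 25.4 ± 2.61 FPKM (mean ± SD, n = 3) in the respective tables. Dmkn had 16.6 ± 3.98 FPKM (mean ± SD, n = 3) in siEXOSC3 and 4.46 ± 0.615 FPKM (mean ± SD, n = 3) in siDDX1 cells, with scramble at 4.62 ± 0.286 FPKM (mean ± SD, n = 3) and 4.58 ± 0.291 FPKM (mean ± SD, n = 3) in those tables. The siDDX1 log2 fold changes of Ndrg4, Nsg2 and Tppp3 were 0.10, 0.33 and 0.32, where that of Ache was -0.04. None of the other cholinergic genes is among these 5 genes.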

How the data were processed

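RNA-seq of N2A cells with scramble, EXOSC3 or DDX1 siRNA (3 libraries each) was used. The authors aligned reads to mm9 with TopHat version 2.1.0 and deposited FPKM from Cuffdiff version 2.2.1 for each gene and library, as 2 tables that both hold the scramble libraries. The annotation and library normalization given to Cuffdiff are not given in the sources used here. FPKM are not counts and the depth is unknown. The depth relative to scramble replicate 1 was read from the commonest ratio among genes with a mean under 0.1 FPKM.

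From the deposited FPKM, log2(FPKM + 1) was fitted by limma (version 3.58.1, R 4.3.3) with an intensity trend, no covariates and two-sided p-values. The procedure was tested on simulated data. The study's replicates are separate plates. Positions came from GENCODE vM1 on NCBIM37, the sequence of mm9, in which 9 of the 10 genes were matched by symbol, and promoters from RefSeq, in which all 10 were. Figures were drawn with matplotlib version 3.10.9.

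Members and lists were chosen with earlier results of these data known. Named were all members, at most 3 called genes per pathway list and knockdown by size of change, the 2 genes nearest to Ache, Exosc3, Ddx1 and the 5 genes most like Ache. Rest, Chga and other genes outside this rule were named after their values were seen. Some genes of the lists enter the counts and sums but are not reported here by name. Alternatives were a pseudocount of 0.1, no filter, a mean of at least 5 FPKM, quantile normalization, median centring, no trend, the replicate number as a block, an adjusted p under 0.01, and leaving out each library in turn.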

Additional observations from a re-analysis of the deposited data

Results flagged for a closer look

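Of the 32 named genes, 5 stood above scramble in every siEXOSC3 library and below scramble in every siDDX1 library. The named genes were chosen with values known, Chga after its values were seen, so their number is a description. Over the genes tested in both tables, which do not include Chrna5, 1.51% showed this pattern and 1.29% its reverse. In siDDX1 cells none of the 4 that were tested passed the threshold, and Chrna5 was under the filter. This difference between the knockdowns was not tested. Chrna3 had a mean of 49.3 FPKM in siEXOSC3 and 25.5 FPKM in siDDX1 cells. Chrna5 had 0.588 FPKM in siEXOSC3 and 0.137 FPKM in siDDX1 cells. Acly had 294 FPKM in siEXOSC3 and 209 FPKM in siDDX1 cells, but its siDDX1 mean was 98.0% of scramble. Isl1 had 9.93 FPKM in siEXOSC3 and 5.08 FPKM in siDDX1 cells, where it was at 88.6% of scramble. Chga had 142 FPKM in siEXOSC3 and 74.8 FPKM in siDDX1 cells, where it was at 86.5% of scramble. Both comparisons use the same scramble libraries.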

How the results depend on the processing

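The log2 fold change of Ache in siEXOSC3 cells lay between 1.72 and 2.14 over 13 alternatives, both ends being reached without single libraries. In siDDX1 cells it lay between -0.14 and 0.13. Chrna3 in siEXOSC3 cells kept its call in all 14 alternatives, with adjusted p-values from 0.00206 to 0.0319.

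Without the filter on low FPKM, 3 members were called higher in siEXOSC3 cells (Chat with an adjusted p of 0.0295 by limma, Chrna5 with 0.0340, and Chrna3), where 1833 of 17015 genes were called higher and 1299 lower, and 0 lower in siDDX1 cells, 2 other cholinergic genes were called higher in siDDX1 cells, and the siDDX1 counts over all genes were 387 higher and 330 lower, where the main counts were 623 and 559. With an adjusted p under 0.01, no member (0) was called lower in siDDX1 cells, and the counts over all genes were 869 higher and 480 lower in siEXOSC3, against 1877 and 1767, and 100 higher and 83 lower in siDDX1 cells. The labels link samples across conditions only by a replicate number. For replicates 1, 2 and 3 the deviations of same-numbered libraries from their group means correlated at 0.03, -0.31 and -0.13 in siEXOSC3. In siDDX1 they correlated at -0.01, 0.38 and 0.37. There replicates 2 and 3 correlated best with their own number and replicate 1 did not. Whether the samples are paired is unknown, and the main fit has no block. With the replicate block, 2 members (Chrna3 and Chrnb2) were called lower in siDDX1 cells, 2 other cholinergic genes higher and 3 (Chrna7, Gata3 and Rest) lower, the call of Chrna1 in siEXOSC3 cells was lost (adjusted p = 0.0511 by limma), and the counts over all genes were 1390 higher and 1059 lower in siEXOSC3 and 1085 higher and 808 lower in siDDX1 cells.

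Without single libraries, members called higher ranged from 1 to 2 in siEXOSC3 and 0 to 1 in siDDX1 cells, and members called lower from 0 to 1 and 0 to 2. Other cholinergic genes called higher ranged from 7 to 10 and 1 to 3, and lower from 1 to 3 and 0 to 4. Counts over all genes ranged from 1027 (without scramble replicate 1) to 2379 higher and 583 to 2508 lower in siEXOSC3, and from 95 (without scramble replicate 3) to 1818 (without siDDX1 replicate 3) higher and 58 to 1706 lower in siDDX1 cells. The cause was not tested. The 6 members under 1 FPKM were left out by the filter, and the depth behind their values is unknown.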
